A study of Mus musculus with 8 samples.

Results

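Methionine, cysteine and serine catabolism was followed here through 10 liver genes: Mat1a, Gnmt, Ahcy, Bhmt, Cbs, Cth, Cdo1, Csad, Sds and Sdsl. They were chosen by gene symbol, as the enzymes of these routes and with earlier results of these data known. Each matched 1 of the 26682 loci in the deposited tables. The livers came from 8 mice in 4 groups of 2: KO mice given IUB288, KO mice given vehicle, WT mice given IUB288 and WT mice given vehicle. IUB288 is an agonist of the glucagon receptor. KO is the labels' word for the mice that the design text describes as carrying floxed Fxr, whose product, the farnesoid X receptor, senses bile acids (Nr1h4 in the tables). The recombinase, the deleted exon and so the cells that lost the gene are not given in the sources used here. Every mouse had a C57Bl/6J background and a 2 h fast. Both high-fat and chow feeding are mentioned without assignment to mice, so diet and group cannot be told apart.

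Methionine enters the route as S-adenosylmethionine, the cell's methyl donor, which MAT1A makes in liver. GNMT spends it to turn glycine into sarcosine, and AHCY splits the S-adenosylhomocysteine left over to give homocysteine. Homocysteine is either methylated back to methionine, as BHMT does with betaine, or joined to serine by CBS and cut by CTH into cysteine and 2-oxobutyrate. CDO1 oxidises cysteine, and CSAD carries the product on towards taurine, which mouse liver uses to conjugate bile acids. SDS deaminates serine to pyruvate and threonine to 2-oxobutyrate, and SDSL is its paralog. Glucagon is known to raise amino acid breakdown in liver, and Csad is known in mice as a gene that bile acids repress through the farnesoid X receptor and its target SHP.

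Promoter windows were searched for letters known to be bound in the responses to cAMP, amino acid shortage and bile acids, because several of the genes moved together with IUB288. RefSeq promoters of build GRCm38.p6, with 250 bases before and 50 bases after each start, were at hand for Cbs, Gnmt, Ahcy, Bhmt and Csad, the last with 2 starts. On either strand, TGACGTCA, the cAMP response element, stood in 1.79% of all 32851 such windows. Its core TGACG, which overlaps it, stood in 20.8%. TGATGNAAN, the amino acid response element, stood in 3.95%, and the inverted repeat IR-1 of the farnesoid X receptor in 0.00913%, that is 3 windows. At that share a match in the windows of these genes was unlikely beforehand, so its absence says nothing about such sites. Of the 6 windows of these genes, 1 of the 2 Csad windows held a match, the core TGACG, from base 197 to base 201. It is shown in capitals below, with the Cbs and Gnmt windows, which held none of these letters, as those of another gene that IUB288 raised in both genotypes and of one called in KO alone. The Csad window is chr15:102205003-102205302, the Cbs window chr17:31637156-31637455 and the Gnmt window chr17:46729116-46729415, all on the minus strand. This Csad window follows a RefSeq start and lies wholly before the start of Csad in GENCODE M21, at 102204724.
Csad: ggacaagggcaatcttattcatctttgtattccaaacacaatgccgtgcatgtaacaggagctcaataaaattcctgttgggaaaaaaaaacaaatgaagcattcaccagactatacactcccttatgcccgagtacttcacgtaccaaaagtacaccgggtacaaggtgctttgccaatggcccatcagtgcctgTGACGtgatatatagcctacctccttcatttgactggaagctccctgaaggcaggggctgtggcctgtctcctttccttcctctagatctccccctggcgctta
Cbs: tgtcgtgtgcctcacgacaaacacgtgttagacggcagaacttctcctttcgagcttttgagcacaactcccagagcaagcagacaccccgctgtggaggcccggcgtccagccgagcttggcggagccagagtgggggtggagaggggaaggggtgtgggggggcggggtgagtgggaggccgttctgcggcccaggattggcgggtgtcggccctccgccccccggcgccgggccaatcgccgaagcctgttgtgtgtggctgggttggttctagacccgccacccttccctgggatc
Gnmt: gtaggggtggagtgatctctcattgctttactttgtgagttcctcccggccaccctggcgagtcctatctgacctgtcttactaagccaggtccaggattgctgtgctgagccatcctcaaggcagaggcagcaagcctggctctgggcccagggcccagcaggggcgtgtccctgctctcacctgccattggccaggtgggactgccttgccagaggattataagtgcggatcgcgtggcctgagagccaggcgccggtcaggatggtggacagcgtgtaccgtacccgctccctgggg
A match is a run of letters and not a measured binding site, and 6837 of the windows searched held the same 5 letters.

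The deposited tables hold 1 pooled FPKM (fragments scaled by transcript length and library depth) per group and gene, with no value per mouse, and the depth is unknown. Each of the 3 tables was scaled on its own, and the KO IUB288 and WT IUB288 levels of the same loci were 1.05 and 1.08 times as high in the treatment tables as in the table of both genotypes. Tests of levels therefore stayed within a table, and levels of KO and WT under vehicle come from different tables. Only the test of the difference in IUB288 effect joined fold changes of the KO and WT treatment tables. Values after ± are standard errors of the log2 fold change that the authors' test statistics imply, and a gene was called where the deposited q-value was under 0.05. Nr1h4 stood at 25.7 FPKM in KO and 37.4 FPKM in WT under IUB288 in the authors' deposited table (log2 fold change -0.54 ± 0.41, q = 1.00), and the level of a whole locus cannot show the loss of 1 exon. Gcgr, the receptor on which IUB288 acts, had -0.04 ± 0.37 with IUB288 in KO and -0.05 ± 0.40 in WT in the authors' deposited tables. Of 5 tested hepatocyte markers, Tat rose and Apoa1 fell with IUB288 in both genotypes in the authors' deposited tables. Tat changed by 2.18 ± 0.50 in KO and 1.25 ± 0.55 in WT, and Apoa1 by -1.39 ± 0.61 in KO and -1.79 ± 0.69 in WT, in the authors' deposited tables. Ttr, which was not called, stood between 4373 and 5428 FPKM in all groups. Alb was listed at 0 in both vehicle groups and at 9284 FPKM (KO) and 9581 FPKM (WT) under IUB288, without a completed test in the treatment tables, and an exact 0 in them can be a failed estimate.

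With IUB288, Cth, Cbs, Mat1a, Csad and Sdsl rose in both genotypes, Gnmt and Sds were called higher in KO, and none of the 10 genes was called lower. In KO, 7 of the 10 genes were called higher and 0 lower in the authors' deposited table, where 3.13% of the 13822 tested loci were called higher and 2.37% lower. In WT, 5 of the 10 were called higher and 0 lower, where 3.96% of 15164 loci were called higher and 3.4% lower. Since the 10 genes were chosen with earlier results of these data known, these shares do not test them as a group. Loci above 100 FPKM in the higher of the 2 groups compared were called higher more often, 9.77% of 870 loci in KO and 18.5% of 930 loci in WT. A locus raised by IUB288 can enter that set through its IUB288 level, which can lift the shares and median fold changes of the set. Sdsl lay outside the set in both genotypes, and Csad in WT. The median log2 fold change of the 10 genes was 1.77 in KO and 1.31 in WT, against -0.00 and 0.03 over all tested loci and 0.25 and 0.43 over loci above 100 FPKM. Summed over the 10 genes, the level was 9636 FPKM under IUB288 and 4834 FPKM under vehicle in KO, and 11775 FPKM under IUB288 and 6179 FPKM under vehicle in WT. By level under IUB288, Gnmt stood first in both genotypes, then Mat1a and Bhmt, and Sds, Csad and Sdsl last in that order. Under vehicle the highest was Bhmt in KO and Gnmt in WT, and Cth stood above Sds in KO and below it in WT. These orders have no error, since each level is 1 pooled value. In whole liver, a change of RNA per cell and a change in the share of cells cannot be told apart.

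**Figure D1:**
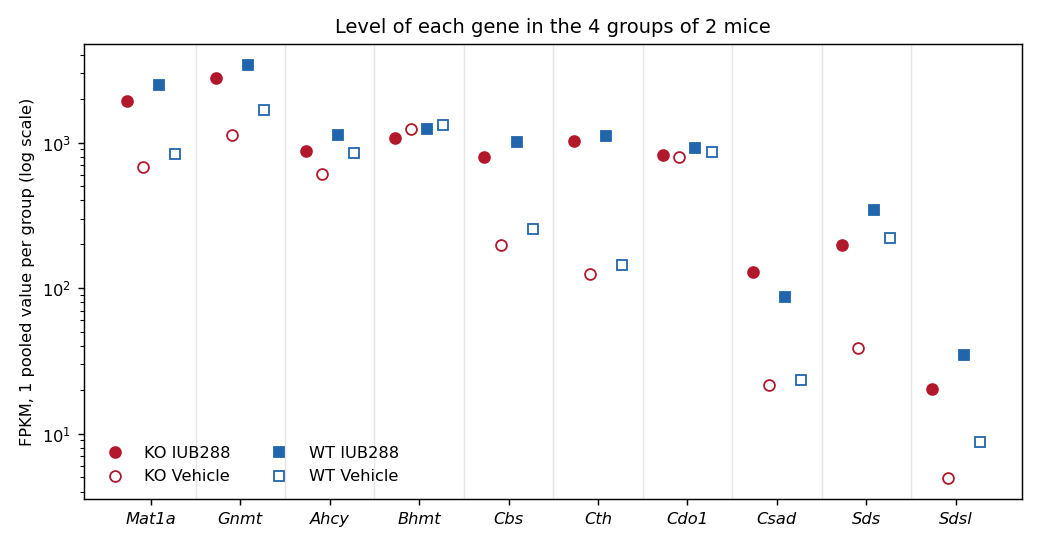
Level of each gene in the 4 groups, with the pooled FPKM of 2 mice on a log scale and no error known. Filled symbols (IUB288) stand above open ones (vehicle) for Mat1a, Gnmt, Ahcy, Cbs, Cth, Csad, Sds and Sdsl in both genotypes, and below them for Bhmt.

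Cth, the enzyme that releases cysteine, had the largest increase among the 10 genes in both genotypes. It lies on mm10 chromosome 3 from 157894248 to 157925077, on the minus strand, and its longest transcript has 12 exons. The authors' deposited table for KO gave Cth 1026 FPKM under IUB288 and 124 FPKM under vehicle, an 8.25-fold difference (95% interval 4.43 to 15.4, log2 fold change 3.04 ± 0.46, q = 0.00189). The authors' deposited table for WT gave 1105 FPKM under IUB288 and 145 FPKM under vehicle, a 7.65-fold difference (95% interval 4.03 to 14.5, log2 fold change 2.93 ± 0.47, q = 0.00163). Both IUB288 levels stood well above both vehicle levels. The Cth fold change was higher than those of 99.3% of the 11159 loci of at least 1 FPKM in KO and 99.2% of 11305 in WT. Ranked by level within each group, Cth took place 111 under IUB288 and place 608 under vehicle in KO, and places 121 and 545 in WT.

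Cbs, which opens the same route by joining homocysteine to serine, rose in both genotypes. It lies on mm10 chromosome 17 from 31608894 to 31637238, on the minus strand. The authors' deposited table for KO gave Cbs 802 FPKM under IUB288 and 197 FPKM under vehicle (4.07-fold, 95% interval 2.05 to 8.07, log2 fold change 2.03 ± 0.50, q = 0.00189). In WT the authors' deposited table gave 1006 FPKM under IUB288 and 256 FPKM under vehicle (3.93-fold, 95% interval 1.97 to 7.86, log2 fold change 1.98 ± 0.51, q = 0.00163). Of the pair, Cbs had the higher level under vehicle and Cth the higher under IUB288. Per length, Cth stood at 1.28 times the level of Cbs under IUB288 and 0.631 times under vehicle in KO, and at 1.10 and 0.565 times in WT, ratios without a test.

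In the methionine cycle, Mat1a rose in both genotypes and Gnmt in KO, and the genes that handle what is left of S-adenosylmethionine did not pass the test. Mat1a lies on mm10 chromosome 14 from 41105035 to 41124412, on the plus strand. The authors' deposited table for KO gave Mat1a 1928 FPKM under IUB288 and 679 FPKM under vehicle (2.84-fold, log2 fold change 1.51 ± 0.58, 95% interval 0.37 to 2.64, q = 0.0165). For WT the authors' deposited table gave 2490.5 FPKM under IUB288 and 831 FPKM under vehicle (log2 fold change 1.58 ± 0.63, 95% interval 0.36 to 2.81, q = 0.0156). Both Mat1a calls were lost when normal p-values were taken from the authors' statistic, with adjusted p = 0.228 in KO and 0.218 in WT. Gnmt, whose enzyme is known to hold the methyl donor in check, lies on mm10 chromosome 17 from 46725664 to 46729168, on the minus strand, and has 6 exons. The authors' deposited table for KO gave Gnmt 2759 FPKM under IUB288 and 1129.6 FPKM under vehicle (2.44-fold, 95% interval 1.28 to 4.67, q = 0.00761), a call also lost with normal p-values (adjusted p = 0.188). In WT the authors' deposited table gave 3431 FPKM under IUB288 and 1664 FPKM under vehicle (2.06-fold, 95% interval 1.02 to 4.18, q = 0.0671), which was not called. Under IUB288 Gnmt had the highest level of the 10 genes in both genotypes.

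Ahcy and Bhmt were not called in either genotype. Ahcy lies on mm10 chromosome 2 from 155059310 to 155074497 and Bhmt on chromosome 13 from 93616675 to 93637961, both on the minus strand. Ahcy had 875 FPKM under IUB288 and 609 FPKM under vehicle in KO in the authors' deposited table (log2 fold change 0.52 ± 0.49, 95% interval -0.44 to 1.48, q = 0.534). In WT it had 1121 FPKM under IUB288 and 852 FPKM under vehicle in the authors' deposited table (0.40 ± 0.52, 95% interval -0.63 to 1.42, q = 0.648). Bhmt, the betaine route back to methionine, was the 1 gene of the 10 with negative fold changes. It had 1077 FPKM under IUB288 and 1236 FPKM under vehicle in KO (log2 fold change -0.20 ± 0.51, 95% interval -1.19 to 0.79, q = 0.904, the authors' deposited table). WT livers had 1238 FPKM of Bhmt under IUB288 and 1316 FPKM under vehicle in the authors' deposited table (-0.09 ± 0.54, 95% interval -1.15 to 0.97, q = 0.955). These intervals reach a change of 2-fold in at least 1 direction, so by them such changes were not excluded. The deposited p-values imply smaller errors, for which intervals were not computed. Bhmt had the highest level of the 10 genes in KO under vehicle and stood below Gnmt and Mat1a in KO under IUB288. Mat1a accordingly stood at 1.79 times the level of Bhmt under IUB288 and 0.549 times under vehicle in KO, and at 2.01 and 0.631 times in WT.

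**Figure D2:**
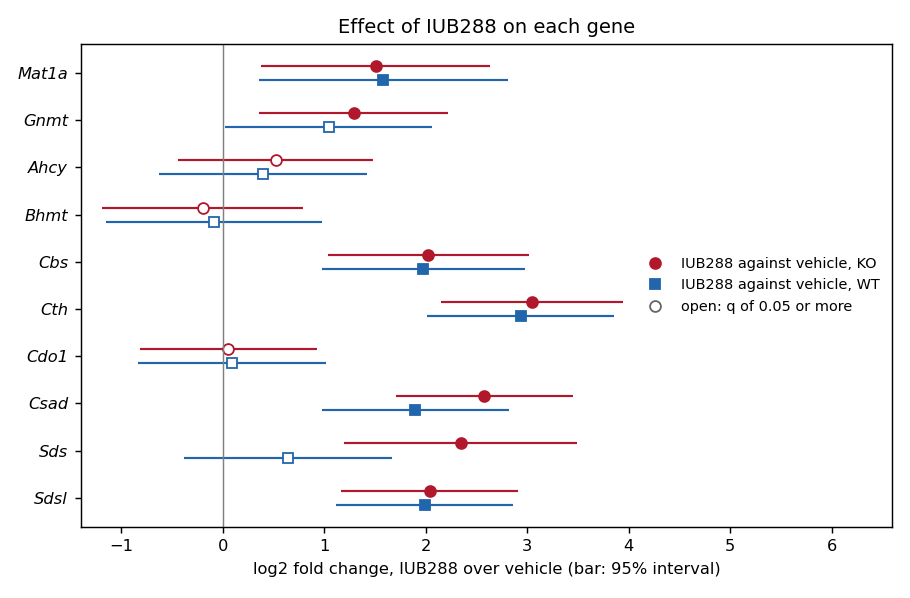
Log2 fold change of each gene with IUB288 over vehicle in KO (circles) and WT (squares), with bars for the 95% intervals that the deposited statistics imply and open symbols for q of 0.05 or more. Cth lies farthest right in both genotypes, and the symbols of Sds are farthest from each other.

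Of the pair of genes that lead from cysteine to taurine, Csad rose and Cdo1 was not called. Cdo1 lies on mm10 chromosome 18 from 46713193 to 46728395, and Csad on chromosome 15 from 102176999 to 102204724, both on the minus strand. The authors' deposited table for KO gave Csad 128 FPKM under IUB288 and 21.5 FPKM under vehicle (5.96-fold, 95% interval 3.25 to 10.9, log2 fold change 2.57 ± 0.45, q = 0.00189). For WT the authors' deposited table gave 86.8 FPKM under IUB288 and 23.3 FPKM under vehicle (3.73-fold, 95% interval 1.96 to 7.06, log2 fold change 1.90 ± 0.47, q = 0.00163). The vehicle levels lay close together and the KO level under IUB288 was the highest of the 4. Csad shares 278 exon bases, 7.26% of its exon sequence, with Zfp740 on the other strand, and the sources used here do not say whether reads were assigned by strand. Zfp740 stood between 5.86 and 6.82 FPKM in all 4 groups. Cdo1 had 824 FPKM under IUB288 and 794 FPKM under vehicle in KO in the authors' deposited table (log2 fold change 0.05 ± 0.45, 95% interval -0.82 to 0.93, q = 0.973). In WT it had 917 FPKM under IUB288 and 864 FPKM under vehicle in the authors' deposited table (0.09 ± 0.47, 95% interval -0.84 to 1.01, q = 0.946). Cdo1 thus stood 6.44 times as high as Csad under IUB288 and 37.0 times under vehicle in KO, and 10.6 and 37.1 times in WT.

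The serine dehydratase genes Sds and Sdsl lie beside each other on mm10 chromosome 5, with 3715 bases between them, on opposite strands. Sds runs from 120476526 to 120483932 on the plus strand and Sdsl from 120458186 to 120472810 on the minus strand. The authors' deposited table for KO gave Sds 197 FPKM under IUB288 and 38.8 FPKM under vehicle (5.08-fold, 95% interval 2.29 to 11.2, log2 fold change 2.34 ± 0.59, q = 0.00189). In WT the authors' deposited table gave 345 FPKM under IUB288 and 220.5 FPKM under vehicle (1.56-fold, 95% interval 0.767 to 3.19, log2 fold change 0.64 ± 0.52, q = 0.397). Sds was called in KO and not in WT, and 1 group stood apart: KO under vehicle lay far below the other 3. Sdsl rose in both genotypes. It had 20.3 FPKM under IUB288 and 4.93 FPKM under vehicle in KO in the authors' deposited table (4.11-fold, 95% interval 2.25 to 7.52, log2 fold change 2.04 ± 0.44, q = 0.00189). WT livers had 34.7 FPKM of Sdsl under IUB288 and 8.73 FPKM under vehicle in the authors' deposited table (3.97-fold, 95% interval 2.17 to 7.27, log2 fold change 1.99 ± 0.44, q = 0.00163). Sdsl had the lowest level of the 10 genes in every group. Sds stood 9.70 times as high as Sdsl under IUB288 and 7.86 times under vehicle in KO, and 9.93 and 25.3 times in WT. Sds shares 360 exon bases, 21.3% of its exon sequence, with Plbd2 on the minus strand. Plbd2 stood at 15.7 FPKM under IUB288 and 17.7 FPKM under vehicle in KO, and at 19.6 and 21.9 FPKM in WT, below every level of Sds.

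Whether IUB288 acted differently in KO and WT was tested for each gene by subtracting the WT fold change from that of KO, with the errors implied by the authors' statistics, a normal p and Benjamini-Hochberg adjustment over 13521 loci. From the authors' statistics none of the 10 genes passed after adjustment (adjusted p = 1.00 each), where 0.0592% of the loci were called higher in KO and 0.0444% lower. At an unadjusted p under 0.05 there was 1 gene, Sds. The Sds effect was larger in KO by 1.70 ± 0.79 on the log2 scale (95% interval 0.16 to 3.24, p = 0.0305 by the normal test on the authors' statistics). Csad came next, with a difference of 0.68 ± 0.65 (95% interval -0.59 to 1.95). The other 8 genes had differences between -0.11 (Bhmt) and 0.24 (Gnmt), and their errors lay between 0.63 and 0.85. For Cth the difference was 0.11 ± 0.66 (95% interval -1.18 to 1.40), for Cbs 0.05 ± 0.72 (-1.36 to 1.45), for Mat1a -0.08 ± 0.85 (-1.75 to 1.59) and for Sdsl 0.05 ± 0.63 (-1.18 to 1.28). For Gnmt, called in KO and not in WT, it was 0.24 ± 0.71 (-1.14 to 1.63), so the genotypes were not shown to differ. With 2 mice per group, effects that differ by 2-fold between genotypes lay within these intervals for every gene of the 10.

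**Figure D3:**
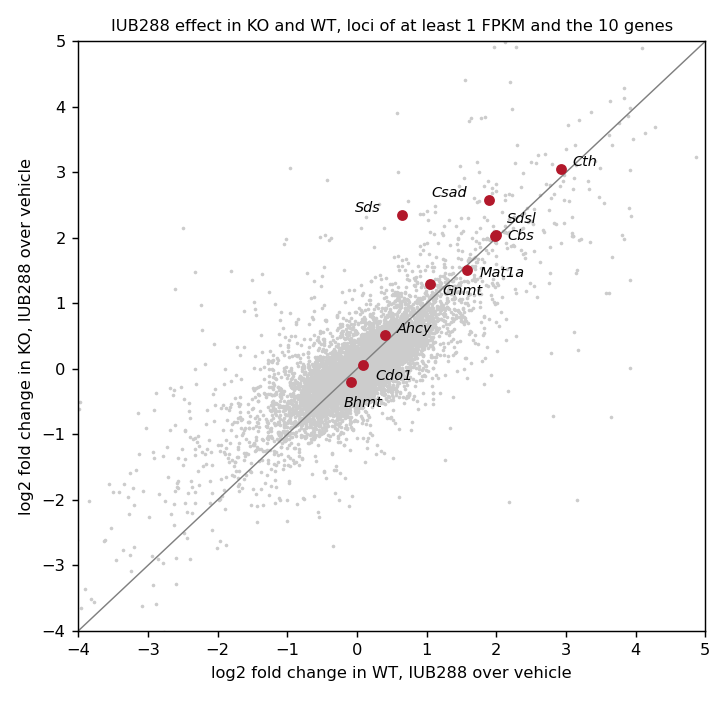
Log2 fold change with IUB288 in KO (y axis) against WT (x axis) for 10850 loci of at least 1 FPKM in both tables (grey, 47 lie beyond the axes) and the 10 genes (red), with the line of equal change. Most of the 10 lie along the line in the upper right, and Sds lies above it, at 2.34 in KO and 0.64 in WT.

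None of the 10 genes was called between KO and WT livers under IUB288. The authors' deposited table called 0 of the 10, where 0.323% of 13918 loci were called higher in KO and 0.216% lower, and normal p-values from the statistic also called 0. At an unadjusted p under 0.05 there was 1 gene, Sdsl, with 19.3 FPKM in KO and 32.2 FPKM in WT in the authors' deposited table (log2 fold change -0.74 ± 0.43, 95% interval -1.58 to 0.10, p = 0.0144 from the Cuffdiff test of this locus, q = 0.673). The interval crosses 0 because its error, taken from the statistic, is larger than the one this p-value implies. Sds, the neighbour of Sdsl, had 187 FPKM in KO and 321 FPKM in WT in the authors' deposited table (-0.78 ± 0.56, 95% interval -1.88 to 0.32, q = 1.00). Csad was the 1 gene of the 10 with a positive value, at 121 FPKM in KO and 80.5 FPKM in WT in the authors' deposited table (0.59 ± 0.46, 95% interval -0.30 to 1.49, q = 1.00). The remaining 7 genes had log2 fold changes between -0.34 (Mat1a) and -0.08 (Cth) in the authors' deposited table, each with q = 1.00. The median of the 10 was -0.29, against -0.01 over all tested loci and -0.20 over loci above 100 FPKM.

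No deposited table sets KO against WT under vehicle, and that difference was chained from the log2 fold changes of the 3 tables, without a test or an error. All 10 values were negative, with a median of -0.30, against 0.05 over 9831 loci. The median of loci above 100 FPKM, which was -0.20 between KO and WT under IUB288, was not computed under vehicle. Sds stood far from the rest at -2.48, that is 5.58-fold lower in KO, and only 0.061% of the loci had lower values. Sdsl followed at -0.79 (1.73-fold lower in KO), and 2.32% of the loci had lower values. Gnmt had -0.53, Ahcy -0.45, Cbs -0.34, Mat1a -0.26, Cth -0.19, Cdo1 -0.09, Csad -0.08 and Bhmt -0.06. With IUB288, Sds rose more in KO, beside a lower level under vehicle, but the difference between genotypes did not pass adjustment. The chained value contains that same difference, so it is not a separate observation. In KO the Sds level under IUB288 was below that of WT, not above it. For Csad the order was the other way: the vehicle levels were nearly equal and the KO level under IUB288 was the higher one.

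**Figure D4:**
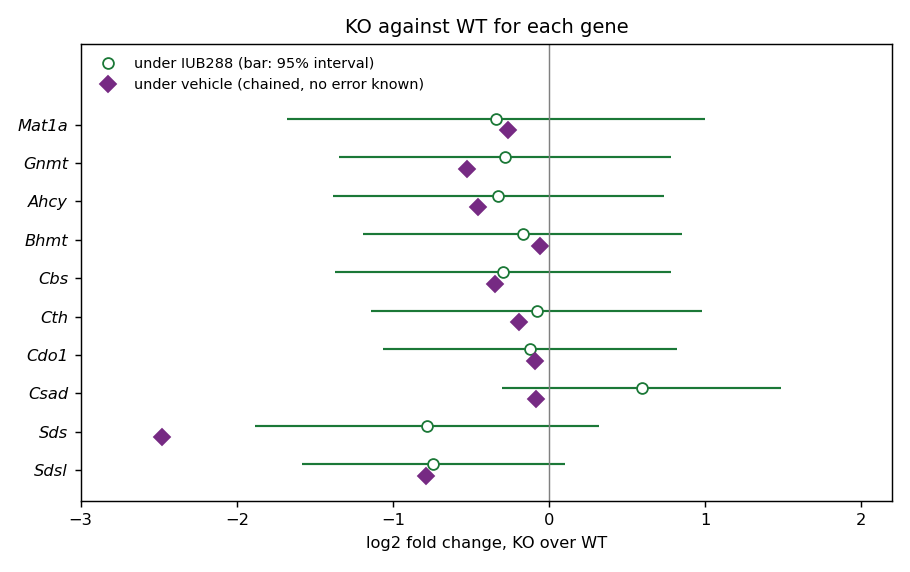
Log2 fold change of KO over WT for each gene, under IUB288 (open circles, with 95% intervals from the deposited statistics) and under vehicle (diamonds, chained from 3 tables, no error known). All intervals cross 0, and Sds under vehicle lies alone at -2.48.

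Other genes of these pathways were followed in 8 lists, with 78 genes found. By the authors' deposited q-values, 8 of the 72 tested in KO were called higher and 1 lower, 6 of the 73 tested in WT were called higher and 2 lower, and 1 of 72 was called higher between KO and WT under IUB288. As shares, 11.1% were higher and 1.39% lower in KO, against 3.13% and 2.37% of all tested loci, and 8.22% were higher and 2.74% lower in WT, against 3.96% and 3.4%. The lists too were chosen with earlier results known, so these shares do not test them. Among 12 genes of the methionine cycle and methyl transfer, 1 rose in KO and 2 in WT, with list medians of 0.09 in KO and 0.28 in WT. Nnmt, which spends S-adenosylmethionine on nicotinamide, had the largest increase of all the listed genes. The authors' deposited table for KO gave Nnmt 751 FPKM under IUB288 and 56.0 FPKM under vehicle (13.4-fold, log2 fold change 3.75 ± 0.39, q = 0.00189). In WT the authors' deposited table gave 966 FPKM under IUB288 and 71.1 FPKM under vehicle (13.6-fold, 3.76 ± 0.43, q = 0.00163). Bhmt2, the paralog of Bhmt, had 0.04 ± 0.37 in KO and 0.28 ± 0.40 in WT in the authors' deposited tables. None of 5 betaine and sarcosine genes was called in either genotype.

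In the list of cysteine, sulfide and taurine genes, 1 of 9 rose in KO and 2 of 9 in WT. Got1, the aminotransferase that can also take up cysteine sulfinate, had 430.4 FPKM under IUB288 and 58.8 FPKM under vehicle in KO in the authors' deposited table (log2 fold change 2.87 ± 0.41, q = 0.00189). WT livers had 541 FPKM of Got1 under IUB288 and 146 FPKM under vehicle in the authors' deposited table (1.89 ± 0.45, q = 0.00163). Ethe1, which oxidises sulfide-derived persulfide, rose in WT, with 127 FPKM under IUB288 and 63.6 FPKM under vehicle in the authors' deposited table (1.00 ± 0.46, q = 0.0278). In KO Ethe1 had 0.74 ± 0.42 and was not called (authors' deposited q = 0.142). Baat, which joins taurine to bile acids, had 0.01 ± 0.38 in KO and 0.28 ± 0.42 in WT in the authors' deposited tables and was not called. Of 7 glutathione genes 1 rose and 1 fell in KO, and 0 rose and 1 fell in WT. Gss, the last enzyme of glutathione synthesis, rose in KO, at 49.9 FPKM under IUB288 and 26.7 FPKM under vehicle in the authors' deposited table (0.90 ± 0.38, q = 0.0175). In WT Gss had 0.73 ± 0.41 and was not called (authors' deposited q = 0.117). For neither Ethe1 nor Gss did the difference between genotypes pass adjustment. Chac1, which degrades glutathione, fell in both genotypes at low levels. It had 0.530 FPKM under IUB288 and 3.24 FPKM under vehicle in KO in the authors' deposited table (-2.61 ± 0.71, q = 0.00346). WT livers had 0.342 FPKM of Chac1 under IUB288 and 4.21 FPKM under vehicle in the authors' deposited table (-3.62 ± 0.78, q = 0.00163).

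Of 10 serine and glycine genes 3 rose in KO and 2 in WT. Agxt, which moves the amino group of alanine or serine to other acids, had 1076 FPKM under IUB288 and 135 FPKM under vehicle in KO in the authors' deposited table (log2 fold change 2.99 ± 0.42, q = 0.00189). In WT it had 1138 FPKM under IUB288 and 218 FPKM under vehicle in the authors' deposited table (2.38 ± 0.47, q = 0.00163). Gldc, of the glycine cleavage system, rose less, by 0.86 ± 0.37 in KO (q = 0.0315) and 0.85 ± 0.40 in WT (q = 0.0435) in the authors' deposited tables. Psat1, of serine synthesis, was the 1 listed gene called between KO and WT under IUB288, at 1.78 FPKM in KO and 0.389 FPKM in WT in the authors' deposited table (2.19 ± 0.72, q = 0.0208). With IUB288 Psat1 also rose in KO, to 1.87 FPKM against 0.589 FPKM under vehicle in the authors' deposited table (1.67 ± 0.67, q = 0.0308). In WT Psat1 had 0.26 ± 0.84 with IUB288 and was not called (authors' deposited q = 0.895). In the folate list, 1 of 9 tested genes rose in KO and 0 of 10 in WT. That gene was Mthfd1l, which makes formate in mitochondria, at 0.773 FPKM under IUB288 and 0.0832 FPKM under vehicle in KO in the authors' deposited table (3.22 ± 0.97, q = 0.00628). In WT Mthfd1l had 0.50 ± 0.64 (authors' deposited q = 0.625). For neither Psat1 nor Mthfd1l did the IUB288 effect differ between genotypes after adjustment. None of 7 genes that take 2-oxobutyrate on to propionyl-CoA and beyond was called in either genotype.

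Of 13 transcription factors and receptors known to act on such genes, 1 rose in KO and 1 fell in WT. Ppargc1a, a coactivator of fasting genes, had 3.53 FPKM under IUB288 and 1.59 FPKM under vehicle in KO in the authors' deposited table (log2 fold change 1.15 ± 0.41, q = 0.00879). Cebpb fell in WT, at 30.5 FPKM under IUB288 and 61.6 FPKM under vehicle in the authors' deposited table (-1.02 ± 0.40, q = 0.00163), and had 0.03 ± 0.36 in KO. Neither difference between genotypes passed adjustment (adjusted p = 1.00 each, by the normal test on the authors' statistics). Nr0b2, the gene of SHP, had 0.27 ± 0.36 in KO and -0.07 ± 0.40 in WT with IUB288 in the authors' deposited tables. Atf4, which acts through the amino acid response element, had 0.37 ± 0.35 in KO and 0.57 ± 0.40 in WT in the authors' deposited tables.

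**Figure D5:**
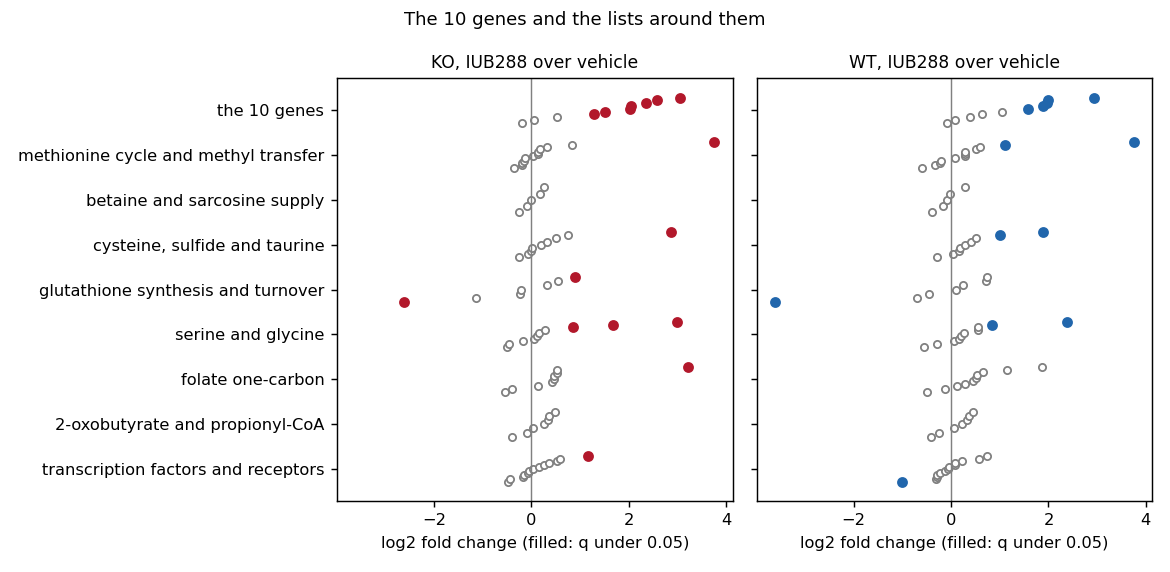
Log2 fold change with IUB288 over vehicle in KO (left) and WT (right) for the 10 genes and the tested genes of 8 lists around them, with filled points for q under 0.05. The 10 genes, chosen with earlier results known and kept out of the lists, hold 7 filled points in KO and 5 in WT. Most listed genes lie within 1 of 0.

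Among 10168 loci, the nearest to each gene called in both genotypes were sought by the distance between their pairs of log2 fold changes in KO and WT. Cbs and Sdsl were each other's nearest locus, 0.0211 apart. Next to Cbs stood Itih2 (0.0701) and Smarcd1 (0.0802). For Mat1a the nearest was Slc17a1, 0.0172 apart, then Hdc (0.0874), which was not called, and Wdr92 (0.128). For Cth they were Mmd2 (0.0935), Jazf1 (0.224) and the metallothionein gene Mt1 (0.224), and for Csad Ctcfl (0.122), which was not called, Mcm5 (0.140) and Mcm6 (0.176). These distances rest on the 2 effects alone, and loci of any level can match. All are smaller than the standard errors of the 10 genes' effects, which lay between 0.44 and 0.59 in KO and 0.44 and 0.63 in WT. The order of the nearest loci is therefore not resolved.

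Markers of liver zones and of other cells moved with IUB288 as well. Of 6 periportal markers 4 rose in KO (Hal, Gls2, Pck1 and Ass1), and in WT Hal and Gls2 rose and Cyp2f2 fell. Of 6 pericentral markers Glul, Cyp2e1, Rgn and Cyp1a2 fell and Oat rose in both genotypes. The list medians were 1.75 in KO and 1.26 in WT for the periportal markers and -1.37 and -1.18 for the pericentral ones, and their part in the increases of the 10 genes was not tested. Under vehicle the summed level of the periportal markers was 3131 FPKM in KO and 6150 FPKM in WT. That was the same direction as Sds, without a test. The summed level of the pericentral markers went the other way, at 7391 FPKM in KO and 6307 FPKM in WT. Ass1, the highest of the periportal markers, stood at 1558 FPKM in KO and 3589 FPKM in WT, and Cps1 at 680 and 743 FPKM. Pck1 stood at 256 and 880 FPKM, Gls2 at 86.8 and 247 FPKM and Hal at 40.9 and 108 FPKM. Each of the 6 periportal markers was lower in KO, by unlike amounts, and the levels come from separately scaled tables. Of 7 stellate cell and fibroblast markers 1 fell in KO and 5 in WT. Their summed level was 72.1 FPKM under IUB288 and 82.6 FPKM under vehicle in KO, and 62.9 and 118 FPKM in WT. Under IUB288 2 of 6 Kupffer cell markers were lower in KO, with a summed level of 34.7 FPKM in KO and 83.3 FPKM in WT. Of 4 pancreas genes Prss1, Pnlip and Ins2 were listed at 0 in every group. The fourth, Cela1, fell in KO, at 23.8 FPKM under IUB288 and 58.1 FPKM under vehicle in the authors' deposited table (log2 fold change -1.29 ± 0.41, q = 0.00189), and had 20.2 FPKM under IUB288 and 15.5 FPKM under vehicle in WT (0.39 ± 0.47, q = 0.622).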

How the data were processed

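Liver RNA was taken up with TRIzol and made into TruSeq libraries, per the labels' protocols. The submitters' processing notes name bcl2fastq 1.8.4, Trim Galore 0.4.0, the aligner TopHat2 2.0.12 with Bowtie2 2.2.3, and the quantifiers Cufflinks 2.2.1 and Cuffdiff (without a version), and the builds hg19 and mm10. The authors deposited 3 Cuffdiff tables, each with pooled FPKM values of 2 groups, log2 fold changes, test statistics (a score with no fixed range), p-values and q-values. The depth is unknown, so no counting interval was computed. The other sheets, which repeat loci of these tables, were not used, and columns left unmapped numbered 0.

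The 10 genes, the lists and the tests were chosen with earlier results of these data known. A locus was called at status OK and a deposited q under 0.05, counted by sign. Standard errors are the log2 fold change over the statistic, at the median 1.42 to 1.43 times those that the p-values imply, and 95% intervals follow from them. Deposited p-values go no lower than 5e-05. Chained values under vehicle add the KO over WT and WT treatment fold changes and subtract that of KO. The difference test was tested on simulated data. The rule named all 10 genes, up to 3 called genes per list and comparison, Nr1h4 and Gcgr, and the 3 nearest loci of each gene called in both genotypes. The listed genes not called, the promoter windows printed and the markers were named outside it, after their values were seen. The result of 1 called gene that the rule named is not reported here. Gene positions are those of GENCODE M21 on mm10, counted from 1. Computations ran in Python 3.11.15 with scipy 1.17.1, pandas 2.3.3 and numpy 2.4.6.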

Additional observations from a re-analysis of the deposited data

How the results depend on the processing

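Of 170 values of the 10 genes under the alternatives, 1 changed sign, the Cdo1 difference of KO minus WT, which was 0.0389 after centring, against -0.0331, and was not called either way. Of the 60 values with a test, 57 kept their side of the threshold while 3 did not, the Mat1a calls in KO and WT and the Gnmt call in KO, each lost with normal p-values from the statistic. Most of the 57 were not called at the outset and had little room to become calls, so that number does not measure stability. The calls that could be lost were 7 in KO and 5 in WT. Called higher were 6 of the 10 genes in KO and 4 in WT at q under 0.01, and 5 and 4 with normal p-values. Over all loci, q under 0.01 left 284 higher and 205 lower in KO, 345 and 297 in WT, and 0 and 0 between KO and WT under IUB288. Normal p-values left 207 and 141 in KO, 237 and 212 in WT, and 29 and 14 between KO and WT. With standard errors from the p-values, 3 loci in place of 6 had a lower IUB288 effect in KO. The vehicle median of the 10 genes was -0.33 from the ratio of vehicle levels and -0.35 after centring, against -0.30. Leaving out single mice was not run, since each group has 1 pooled value. No paired analysis was possible because the tables hold no value per mouse. Depth limits could not be set.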
